A study of Mus musculus with 4 samples.

Results

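The genes described here make cholesterol, control its synthesis, carry it within and out of the cell, or make fatty acids. They are 29 genes chosen by name from a list, out of 32287 features counted in every library. All 29 were found in the files and all 29 passed the expression filter of the test. The cells were GFP-positive aortic smooth muscle cells, taken from the ascending segment and the arch in C57BL/6J mice of 12 weeks. Controls (WT, GFPiSMC, 2 libraries) carried Myh11-CreERT2 and the mT/mG reporter, which switches from tdTomato to eGFP after recombination. The knockout (KO, Tgfbr1/2iSMCKO, 2 libraries) carried the same 2 transgenes with floxed Tgfbr1 and Tgfbr2, which encode both signalling receptors for TGF-beta. All mice of both groups had received tamoxifen for 5 days, at 1 mg per day from 4 weeks of age or at 2 mg per day from 11 weeks. Which course belongs to which library is not given, so the course and the genotype cannot be told apart. Cre acts only in cells that use the Myh11 promoter, so the receptors of other cell types in these mice were intact. The labels name individual aortic segments but do not give the number of mice per library, and p-values measure the spread between these libraries.

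Cholesterol is built from acetyl-CoA through mevalonate and farnesyl diphosphate, which is joined into squalene, closed into a ring and trimmed to cholesterol by a series of membrane-bound enzymes. The genes of these enzymes are switched on together by the transcription factor SREBP2, which the escort protein SCAP carries out of the endoplasmic reticulum when sterols are scarce and which INSIG proteins hold back when sterols are plentiful. Oxysterols, which form when sterols are in excess, activate the nuclear receptors LXR, whose known target genes include the efflux transporters Abca1 and Abcg1, Srebf1 and Scd1.

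WT 1 held 2429 kept cells, WT 2 3265, KO 1 4252 and KO 2 3522, with 35255748 to 59203071 UMIs per library and medians of 13898 to 15383 UMIs per cell. The 4 libraries shared between 3 and 6 cell barcodes with one another. The 8 smooth muscle markers summed to 44896 to 50790 CPM, with Myh11 at 5207 and 5417 CPM in WT against 7194 and 7028 CPM in KO. Markers of other cell types summed to 15.5 to 18.7 CPM for 8 endothelial genes, 125 to 153 CPM for 7 fibroblast genes, 234 to 252 CPM for 8 adipocyte genes and 109 to 137 CPM for 7 Schwann cell genes. Most of the last 3 sums came from Col14a1, from Fabp4 and Plin4, and from Pmp22, while Cidec, Lep, Ucp1 and Sox10 were at 0 in every library. Some low markers were higher in both KO libraries. Of the fibroblast genes these were Lum (1.20 and 0.894 CPM in WT against 10.8 and 18.6 CPM in KO), Dpt (0.258 and 0.0406 against 1.43 and 2.29) and Pdgfra. Of the 8 endothelial genes all but Pecam1 were higher in both KO libraries, at low levels. Vwf was at 0.831 and 0.548 CPM in WT against 3.28 and 2.62 CPM in KO. Cdh5 was at 0 in WT against 0.505 and 0.603 CPM in KO, and Tek at 0 against 0.539 and 0.428 CPM. The others were Kdr, Cldn5, Emcn and Egfl7. Pecam1, which made up most of the endothelial sum, was lower in both KO libraries (14.4 and 17.7 CPM in WT against 12.6 and 11.7 CPM in KO). So were Col14a1 (123 and 144 against 104 and 93.8), Dpep1 and Clec3b. The 8 macrophage markers summed to 8.10 CPM in KO 1 and at most 0.545 CPM in the others. Which of these markers had a part in the results was not tested. In an alternative, cells that held a UMI of any of 11 markers of other types were left out. Pecam1, Cdh5 and Pdgfra were among these markers, Lum, Dpt and Vwf were not. In the edgeR quasi-likelihood test on the cells left, 27 of the 29 members kept their direction and call. Lss and Dhcr7 lost their calls there. The KO minus WT difference in summed CPM was compared with library totals alone as the scaling. It was −151 in place of −147 for the 18 sterol synthesis enzymes and 4.69 in place of 4.46 for the efflux genes. Transcripts of Tgfbr1 measured 80.8 and 82.3 CPM in WT against 73.3 and 76.1 CPM in KO, and those of Tgfbr2 51.6 and 45.1 CPM against 46.5 and 47.3 CPM. The floxed exons are not named, and 3′ tags outside them check nothing about the deletion. Unless another scaling is named, CPM are UMI counts scaled to equal library totals with TMM factors. They were not divided by gene length because a 3′ tag is counted once per molecule.

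Promoter windows of 22 of the 29 genes were found in the RefSeq table (GRCm38.p6), each spanning 250 bases before to 50 bases after a transcription start; Fdps, Fdft1, Sqle, Stard4, Abcg1, Scd1 and Scd2 were not matched. A pair of stretches upstream of annotated exons is shown because they hold the core letters of a sterol regulatory element, the site that SREBP proteins bind, TCACNCCA, searched on both strands. Capitals mark this core, the CCAAT box (also read as ATTGG on the other strand) and the GC box GGGCGG (also read as CCGCCC), and none of these overlap in the stretches shown.
Hmgcs1, chr13:119690101-119690350, plus strand: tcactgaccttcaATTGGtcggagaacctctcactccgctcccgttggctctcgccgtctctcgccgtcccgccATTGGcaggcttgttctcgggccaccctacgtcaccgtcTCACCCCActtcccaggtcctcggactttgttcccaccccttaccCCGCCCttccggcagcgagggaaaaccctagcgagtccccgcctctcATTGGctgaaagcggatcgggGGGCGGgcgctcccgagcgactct
Srebf2, chr15:82147019-82147180, plus strand: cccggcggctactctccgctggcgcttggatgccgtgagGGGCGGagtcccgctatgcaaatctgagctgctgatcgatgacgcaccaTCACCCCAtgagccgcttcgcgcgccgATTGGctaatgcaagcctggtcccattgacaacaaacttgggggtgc

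The sterol element core was present in 3 of the 22 genes, Hmgcs1, Msmo1 and Srebf2, and in 4.97% of all 27025 genes with a window. It began 137 bases before the start in Hmgcs1, 162 in Srebf2 and 177 in Msmo1, whose stretch is not shown. A CCAAT box was present in 13 of the 14 matched genes that were lower in KO and 5 of the 7 that did not pass the test, against 41.1% of all genes. A GC box was present in 12 of the 14 and 6 of the 7, against 38.2% of all genes. A match is a description of the sequence, not a binding site.

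Of the members, 3 held a spaced direct repeat, GGTNA followed by any 5 bases and GGTCA on either strand, which was found in 0.226% of all genes. These letters were chosen from the known LXR element of Abca1, so the match in that gene adds nothing. The repeats are shown with 20 bases on each side, and the capitals mark the repeat, which lies on the strand opposite to the gene in all 3.
Abca1, chr4:53159928-53159982, minus strand: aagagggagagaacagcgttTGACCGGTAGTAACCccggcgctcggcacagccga
Srebf1, chr11:60210619-60210673, minus strand: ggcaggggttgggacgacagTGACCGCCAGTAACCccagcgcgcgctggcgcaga
Fasn, chr11:120824738-120824792, minus strand: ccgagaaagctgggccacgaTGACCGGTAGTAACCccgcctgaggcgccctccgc

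Of the 29 genes, 18 were lower in KO, 3 were higher and 8 did not pass (edgeR quasi-likelihood test, adjusted p under 0.05 over 14474 genes). Of all genes tested 11.1% were lower and 9.17% higher, or 20.3% in either direction. The median log2 difference (KO minus WT) was −0.55 over the members and −0.0037 over all genes tested. Both KO libraries lay below both WT libraries for 24 of the 29 and above both for 4, and only Mvk overlapped. Of all genes tested, 32.3% lay below, 31.3% above and 63.5% did either.

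The share of calls among all genes also moved with the setting. Leaving out WT 1, WT 2, KO 1 and KO 2 in turn called 16, 12, 17 and 13 members lower, against 6.95%, 8.63%, 8.75% and 8.51% of all genes tested. It called 1, 2, 2 and 2 members higher, against 5.38%, 6.77%, 6.99% and 7.8%. DESeq2 called 13 members lower and 1 higher (9.56% and 7.9% of all genes), and the replicate block 18 and 3 (12.1% and 10.5%). With cells thinned to equal depth 14 were lower and 1 higher (9.71% and 7.66%). Among genes of at least 20 CPM 9 of 13 members tested were lower and 1 higher (16.0% and 11.0%). Members were called lower more often than genes at large in each of these settings, and the choice of members with results known does not allow a test of that.

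**Figure D1:**
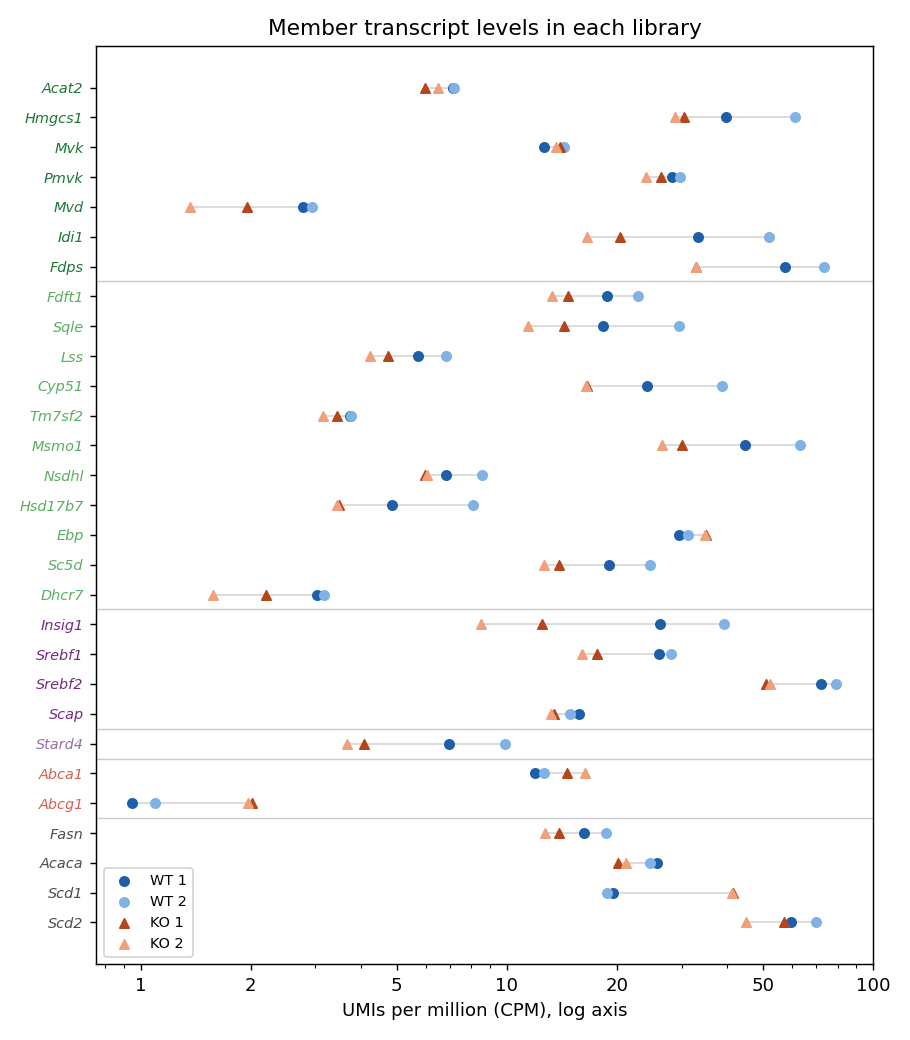
Level of each of the 29 genes (CPM, log axis) in WT 1 and WT 2 (circles) and KO 1 and KO 2 (triangles), in pathway order; label colours and grey lines separate the 6 steps. The WT circles lie to the right of the KO triangles for 24 genes, and Scd1, Abca1, Abcg1 and Ebp show the opposite order.

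Of the 7 enzymes from acetyl-CoA to farnesyl diphosphate 4 fell in KO, Hmgcs1, Mvd, Idi1 and Fdps, against 11.1% of all genes tested. The other 3 did not pass, Acat2, Mvk and Pmvk. Fdps, which makes farnesyl diphosphate, stood at 57.6 and 73.6 CPM in WT and 32.9 CPM in both KO libraries. It fell by 1.00 on the log2 scale (SE 0.11, adjusted p = 0.000713), to 50.2% of the WT mean. Idi1, the isomerase before it, stood at 33.3 and 51.9 CPM in WT against 20.4 and 16.6 CPM in KO (log2 −1.21, SE 0.19, adjusted p = 0.00376).

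Hmgcs1, the synthase that makes HMG-CoA, stood at 39.8 and 61.2 CPM in WT against 30.4 and 28.8 CPM in KO. It fell by 0.78 (SE 0.17, adjusted p = 0.0158), with WT 2 far above the other 3 libraries. Without WT 2 the difference was −0.43 (adjusted p = 0.0206), and DESeq2 did not call the gene (adjusted p = 0.0688). Mvd, the mevalonate decarboxylase, fell from 2.78 and 2.95 CPM to 1.95 and 1.36 CPM (log2 −0.78, SE 0.22, adjusted p = 0.0376) on 70 to 145 UMIs per library. Its call was lost without WT 1, WT 2 or KO 2 (adjusted p = 0.0791, 0.111 and 0.146), by DESeq2 (0.0763) and in cells of at least 5000 UMIs and at most 5% mitochondrial UMIs (0.0700). In cells thinned to equal depth its difference was −0.31 (adjusted p = 0.487). The kinases Mvk and Pmvk did not pass. Mvk stood at 12.6 and 14.3 CPM in WT against 13.9 and 13.6 CPM in KO (log2 0.03, 95% interval −0.19 to 0.25), and Pmvk at 28.1 and 29.8 CPM and 26.4 and 24.0 CPM (log2 −0.20, interval −0.39 to −0.01, adjusted p = 0.125). Acat2, which makes acetoacetyl-CoA in the cytosol and is not the sterol acyltransferase once known by that name, had a difference of −0.20 (interval −0.46 to 0.06).

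From squalene to cholesterol, 8 of the 11 genes fell, against 11.1% of all genes tested, and 3 did not pass. Msmo1, the sterol methyl oxidase, stood at 44.8 and 63.3 CPM in WT against 30.0 and 26.4 CPM in KO (log2 −0.94, SE 0.15, adjusted p = 0.00382). Cyp51, the lanosterol demethylase, stood at 24.1 and 38.7 CPM in WT against 16.5 and 16.4 CPM in KO (log2 −0.94, SE 0.19, adjusted p = 0.0103). In both genes the KO libraries lay close together and WT 2 stood well above WT 1. Without WT 2 the difference of Cyp51 was −0.55 (adjusted p = 0.00807).

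Sqle, the squalene epoxidase and a rate-limiting step, stood at 18.3 and 29.4 CPM in WT against 14.4 and 11.4 CPM in KO (log2 −0.89, SE 0.21, adjusted p = 0.0189), and DESeq2 did not call it (adjusted p = 0.0854). Without WT 2 its difference was −0.50 (adjusted p = 0.0459). Fdft1, the squalene synthase, stood at 18.7 and 22.7 CPM in WT against 14.7 and 13.3 CPM in KO (log2 −0.57, SE 0.11, adjusted p = 0.00906). Its 3′ end region overlaps that of Ctsb on the other strand by 774 bases in the GENCODE M21 annotation. Ctsb itself had a difference of −0.17 (adjusted p = 0.0968). Fdft1 is not the only member with an overlap. On the same strand Gm43738 overlaps Fdps by 7512 bases and Vps51 overlaps Tm7sf2 by 532 bases. On the other strand Gm48342 overlaps Hmgcs1 by 6190 bases and was lower in KO (log2 −1.77, adjusted p = 0.0462), at 0.277 CPM in the WT mean. The part of these overlaps in the values was not tested.

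Sc5d, the sterol desaturase, stood at 19.0 and 24.5 CPM in WT against 13.9 and 12.6 CPM in KO (log2 −0.72, SE 0.13, adjusted p = 0.00596). Hsd17b7, the sterol ketoreductase, stood at 4.87 and 8.06 CPM in WT against 3.49 and 3.44 CPM in KO (log2 −0.91, SE 0.22, adjusted p = 0.0240). Its call was lost without WT 2, where the difference was −0.49 (adjusted p = 0.105). The 2 weakest calls were Lss, the cyclase that closes the sterol ring (log2 −0.49, SE 0.14, adjusted p = 0.0452), and Dhcr7, the last reductase of one branch (log2 −0.71, SE 0.21, adjusted p = 0.0453). Leaving out libraries changed both calls. Without WT 2 and without KO 2 the adjusted p was 0.207 and 0.151 for Lss and 0.122 and 0.175 for Dhcr7. It was also 0.0615 for Lss without KO 1 and 0.096 for Dhcr7 without WT 1. DESeq2 (0.100 and 0.0966) and thinned cells (0.250 and 0.237) gave no call for Lss or Dhcr7 either. Neither was called once cells with a marker of another type were left out.

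Ebp, the sterol isomerase, was the 1 enzyme of this stretch that stood higher in both KO libraries, at 29.6 and 31.1 CPM in WT against 34.9 and 34.8 CPM in KO. Its difference of 0.20 (SE 0.07, interval 0.04 to 0.36) did not pass (adjusted p = 0.0866). Tm7sf2, a sterol reductase, differed by −0.18 (interval −0.53 to 0.16) and Nsdhl, the sterol dehydrogenase, by −0.36 (interval −0.68 to −0.05, adjusted p = 0.103), and neither passed.

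**Figure D2:**
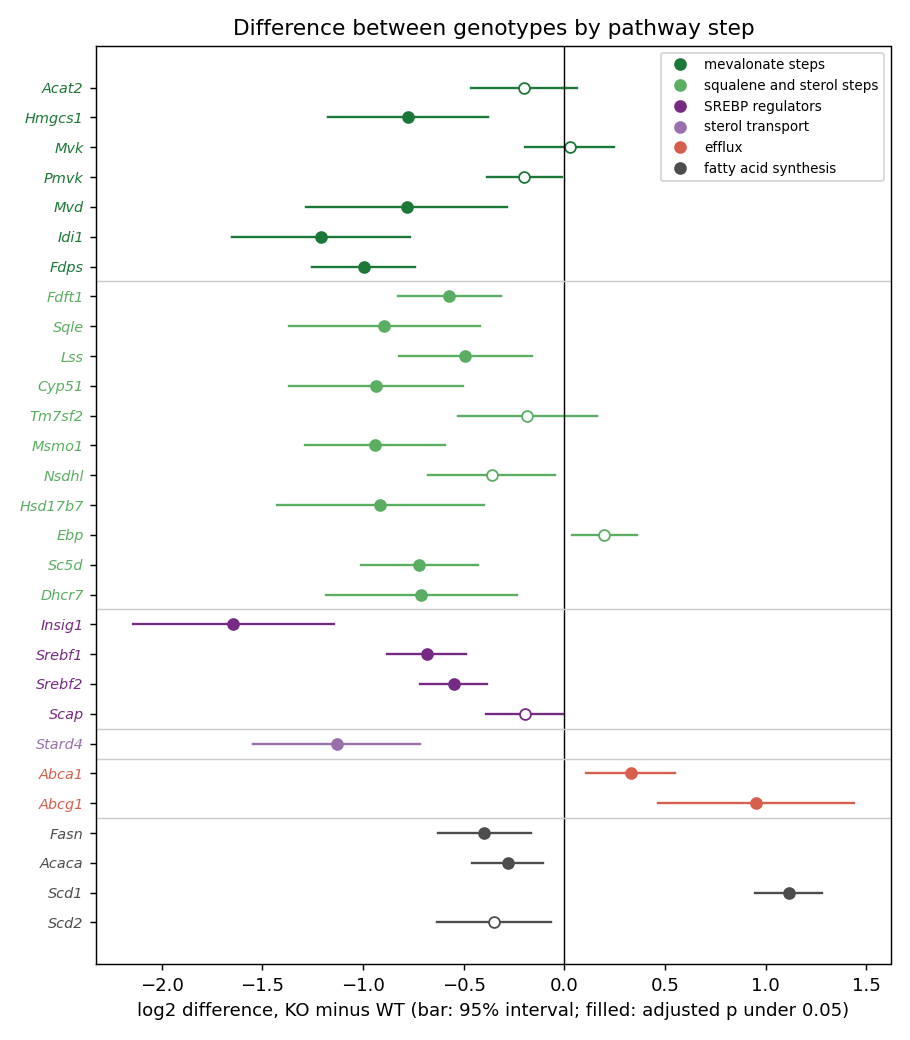
Log2 difference (KO minus WT) of each gene with its 95% interval from the edgeR quasi-likelihood fit, in pathway order and coloured by step; filled points have an adjusted p under 0.05. Insig1 has the lowest value, −1.65, and Scd1 the highest, 1.12.

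Summed over the 18 enzymes, sterol synthesis transcripts stood at 360 and 481 CPM in WT against 276 and 257 CPM in KO, so the KO mean was 63.4% of the WT mean. The exact two-sided permutation test over the 4 libraries gave p = 0.33, the smallest it can give with 2 against 2. The difference between the WT libraries was itself large, 421 ± 85.7 CPM in WT (SD, n = 2) against 267 ± 13.4 CPM in KO (SD, n = 2). All 18 enzymes were higher in WT 2 than in WT 1, and 6 of them by at least 1.3 times, as were 7.86% of all genes tested. Only 3 of the 18 were higher in KO 2 than in KO 1. WT 1 also had the highest median mitochondrial share, 4.62% against 3.76% to 3.86% in the other libraries, and the dissociation stress genes had sums of 1863 CPM (WT 1), 2375 CPM (WT 2) and 1664 CPM in each KO library. Of these genes Fos, Fosb, Jun, Junb and Egr1 were lower in both KO libraries, while Atf3, Hspa1a and Hspa1b overlapped between genotypes. Fos was at 359 and 363 CPM in WT against 59.3 and 57.3 CPM in KO. Hspa1a was at 200 and 318 CPM in WT against 244 and 431 CPM in KO. The part of these in the sterol values was not tested. Without WT 2, 8 of the 18 enzymes were called lower in place of 12, without KO 2 it was 9, and DESeq2 called 7.

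**Figure D3:**
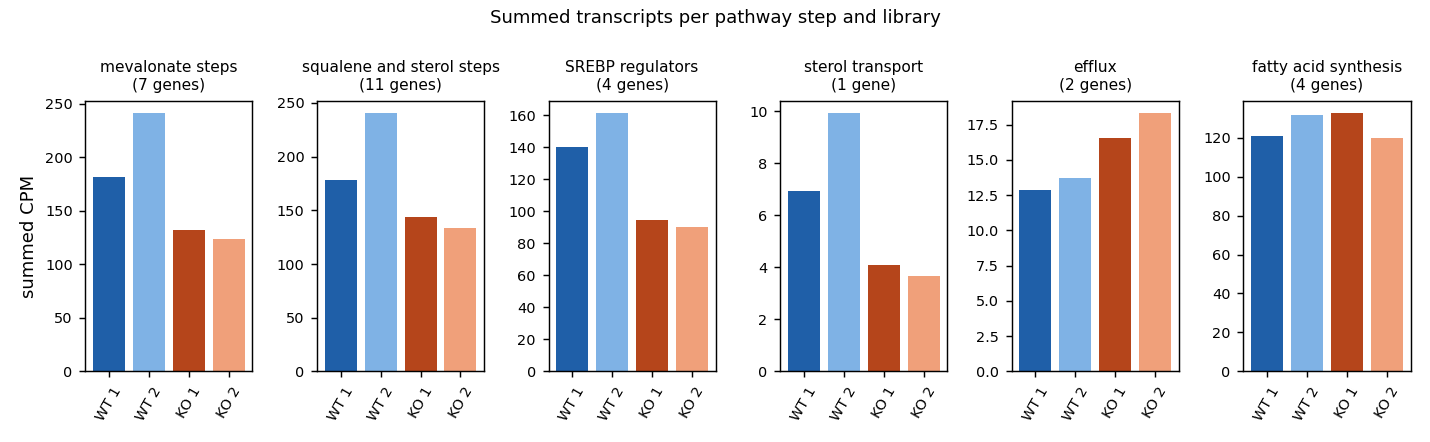
Summed CPM of the genes of each step in the 4 libraries, each panel with its own axis from 0. Both WT bars exceed both KO bars in the 4 panels on the left, the order is opposite for efflux, and the fatty acid bars overlap between genotypes.

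Of 4 regulators of the pathway 3 fell, against 11.1% of all genes tested, and Insig1 had the lowest log2 difference of all members. Insig1, which retains SCAP with SREBP in the endoplasmic reticulum and is itself a target gene of SREBP, stood at 26.2 and 39.2 CPM in WT against 12.4 and 8.48 CPM in KO. Its log2 difference was −1.65 (SE 0.22, adjusted p = 0.00157), which left 32.0% of the WT mean. Srebf2, the gene of SREBP2, stood at 72.2 and 79.0 CPM in WT against 51.0 and 52.3 CPM in KO (log2 −0.55, SE 0.07, adjusted p = 0.00152).

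Srebf1, whose products drive fatty acid and sterol genes, stood at 26.1 and 28.0 CPM in WT against 17.6 and 16.1 CPM in KO (log2 −0.68, SE 0.08, adjusted p = 0.00117). The 2 isoforms of Srebf1 differ at their start and cannot be told apart by 3′ tags. For these 2 genes the libraries of each genotype lay close together and the genotypes did not overlap. Scap stood at 15.7 and 14.9 CPM in WT against 13.5 and 13.2 CPM in KO and did not pass (log2 −0.20, SE 0.08, adjusted p = 0.145). Insig1 (chr5:28071363-28078662), Srebf2 (chr15:82147181-82205379) and Srebf1 (chr11:60199089-60222581) are given in the coordinates of GENCODE M21 on GRCm38.

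Stard4, which carries sterol between membranes inside the cell and is a known SREBP target, stood at 6.94 and 9.91 CPM in WT against 4.08 and 3.66 CPM in KO. It fell by 1.13 (SE 0.18, adjusted p = 0.00377), on 188 to 488 UMIs per library.

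Both efflux transporters rose, and both calls were lost in some of the alternatives. Abcg1, which exports cholesterol to high-density lipoprotein, stood at 0.946 and 1.10 CPM in WT against 2.02 and 1.96 CPM in KO, a rise of 0.95 (SE 0.21, adjusted p = 0.0161) on 33 and 54 against 120 and 101 UMIs. Abca1, which loads cholesterol onto lipid-poor apolipoprotein A-I, stood at 11.9 and 12.6 CPM in WT against 14.6 and 16.3 CPM in KO (log2 0.33, SE 0.10, adjusted p = 0.0451). Neither rise was called by DESeq2 (adjusted p = 0.0544 for Abcg1 and 0.0905 for Abca1). The call of Abcg1 was lost without WT 1 (adjusted p = 0.0726) and without KO 1 (0.0632), and that of Abca1 without WT 1 (0.171), WT 2 (0.0814) and KO 2 (0.190). In thinned cells the differences were 0.61 for Abcg1 (adjusted p = 0.227) and 0.18 for Abca1 (adjusted p = 0.398). Both kept their direction in every alternative that tested them.

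Among the fatty acid genes Scd1 rose and Fasn and Acaca fell. Scd1, which introduces the double bond of oleic acid, stood at 19.5 and 18.7 CPM in WT against 41.5 and 41.1 CPM in KO. It rose by 1.12 (SE 0.07, adjusted p = 4.92e-05) to 216% of the WT mean, the smallest p among the members, and it was called in all 15 alternatives. Its neighbour and close relative Scd2 stood at 59.5 and 70.0 CPM in WT against 57.0 and 44.9 CPM in KO (log2 −0.35, SE 0.12, adjusted p = 0.0840) and did not pass. Without KO 1 the difference was −0.53 and passed (adjusted p = 0.0092), as it did by DESeq2 (−0.34, adjusted p = 0.0458). How reads that match both copies were treated is not given in the sources used here, so the split between them is uncertain.

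Fasn, the fatty acid synthase, stood at 16.3 and 18.6 CPM in WT against 13.9 and 12.7 CPM in KO (log2 −0.40, SE 0.10, adjusted p = 0.0264). Acaca, the acetyl-CoA carboxylase that feeds it, stood at 25.6 and 24.5 CPM in WT against 20.1 and 21.1 CPM in KO (log2 −0.28, SE 0.08, adjusted p = 0.0359). Both are small falls. Fasn was not called without WT 2 (adjusted p = 0.131) or without KO 2 (0.0907), and Acaca was not called when any 1 library was left out (adjusted p = 0.0572 to 0.164), by DESeq2 (0.0766) or in thinned cells (0.228). The sum over the 4 fatty acid genes was 121 and 132 CPM in WT against 132 and 120 CPM in KO and did not separate the genotypes.

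The other genes of these routes were read from lists, of which 74 genes were listed and 71 tested. Of the 71, 11 were higher, 13 lower and 47 did not pass, with a median log2 difference of −0.06. Of all genes tested 9.17% were higher and 11.1% lower.

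Of 8 genes of lipoprotein and fatty acid uptake 4 fell, against 11.1% of all genes tested, and 4 did not pass (median −0.35). Lrp1, a large endocytic receptor, stood at 312 and 301 CPM in WT against 202 and 225 CPM in KO (log2 −0.52, SE 0.07, adjusted p = 0.00179). Lpl, the lipase that releases fatty acids from lipoproteins, stood at 42.6 and 45.7 CPM in WT against 24.9 and 18.1 CPM in KO (log2 −1.04, SE 0.14, adjusted p = 0.00154). Vldlr, a receptor for very low density lipoprotein, fell by 0.37 (SE 0.07, adjusted p = 0.00653).

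Of 9 tested genes of LXR, oxysterols and efflux 5 rose, 1 fell and 3 did not pass (median 0.53). The shares over all genes tested were 9.17% higher and 11.1% lower. Nr1h3, the gene of LXR-alpha, stood at 4.59 and 5.52 CPM in WT against 8.10 and 7.51 CPM in KO (log2 0.62, SE 0.13, adjusted p = 0.0138). Ch25h, which makes 25-hydroxycholesterol, rose from 0.229 and 0.609 CPM to 1.78 and 2.37 CPM (log2 2.23, SE 0.38, adjusted p = 0.00501), at low counts. Rxra, the partner of LXR, fell by 0.35 (adjusted p = 0.0133). Nr1h2, the gene of LXR-beta, named after its value was seen, did not pass (log2 0.06, adjusted p = 0.530).

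Among 7 genes of SREBP processing and sterol-controlled degradation 1 rose, 1 fell and 5 did not pass. With 9.17% of all genes tested higher and 11.1% lower, these counts are near the background. Insig2, the second INSIG gene, stood at 71.3 and 80.1 CPM in WT against 128 and 130 CPM in KO (log2 0.77, SE 0.07, adjusted p = 0.00036), the opposite direction to Insig1. Mbtps1, the site-1 protease that cuts SREBP, fell by 0.34 (SE 0.07, adjusted p = 0.0124). None of 10 genes of lysosomal and intracellular sterol transport passed by edgeR's quasi-likelihood test, DESeq2 or limma-voom. Of these 10, 2 had an unadjusted p under 0.05, Stard3 and Gramd1a, named after their values were seen.

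Of 15 genes of fatty acid supply, elongation and desaturation 2 rose, 2 fell and 11 did not pass, against 9.17% and 11.1% of all genes tested, so the counts are near the background. Fads2, a desaturase of polyunsaturated fatty acids, stood at 27.1 and 29.0 CPM in WT against 54.7 and 55.8 CPM in KO, a rise of 0.98 (SE 0.07, adjusted p = 9.09e-05) near that of Scd1. Acsl3, an acyl-CoA synthetase, fell by 0.62 (adjusted p = 0.00964). In the isoprenoid branch, which uses farnesyl diphosphate for purposes other than sterols, Ggps1 rose from 32.2 and 34.1 CPM to 49.7 and 56.4 CPM (log2 0.68, SE 0.08, adjusted p = 0.00117), while 2 of the 9 genes fell. Of 7 tested late sterol enzymes and their electron donors 1 rose, 2 fell and 4 did not pass. For this list and the isoprenoid branch the shares over all genes tested were likewise 9.17% higher and 11.1% lower. Por, the electron donor of Cyp51 and Sqle, rose by 0.68 (SE 0.11, adjusted p = 0.00456). Tmem97, of the same list, fell by 0.54 (SE 0.13, adjusted p = 0.0260). Pnpla2, the lipase of lipid droplets, rose by 0.49 and Plin2, a droplet coat protein, fell by 0.28 (adjusted p = 0.00269 and 0.0463).

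The members were sparse in single cells. To compare cells at equal depth, each cell was thinned to 5000 UMIs, which left out 150 to 197 cells per library. Scd1 was then seen in 9.63% (95% exact binomial interval 8.44% to 10.9%) and 8.19% (7.24% to 9.21%) of WT cells and in 18.02% (16.9% to 19.2%) and 18.3% (17.0% to 19.6%) of KO cells. Without thinning the shares were 21.5%, 22.1%, 40.8% and 40.4%. Insig1 was seen in 11.7% (10.4% to 13.1%) and 16.02% (14.7% to 17.4%) of WT cells and in 5.34% (4.67% to 6.07%) and 3.94% (3.30% to 4.65%) of KO cells, or 25.1%, 35.3%, 13.5% and 10.6% without thinning. These intervals cover counting error only. The sort held no cell type known to lack these genes, so no background share from free RNA was measured.

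Over cells, the KO distribution of the enzyme sum had more cells at 0 and fewer at the high end. Thinned cells held a mean of 1.75 (WT 1), 2.32 (WT 2), 1.38 (KO 1) and 1.28 (KO 2) UMIs of these enzymes. Cells without any such UMI made up 24.1% and 16.9% in WT and 29.5% and 31.2% in KO, and cells with 5 or more made up 6.45% and 13.3% in WT and 2.90% and 2.12% in KO. The variance over cells divided by the mean was 2.11 and 2.22 in WT and 1.60 and 1.34 in KO. This ratio was not adjusted for the lower mean in KO. It also depends on single cells, and the highest counts in 1 cell were 38 (WT 1), 35 (WT 2), 19 (KO 1) and 13 (KO 2). The medians per library were 1 and 2 in WT and 1 and 1 in KO, and the exact two-sided permutation test over them gave p = 1.0. Without thinning, medians were 2.77 and 3.74 in WT and 2.33 and 2.26 in KO per 10000 UMIs, and the same exact permutation test gave p = 0.33, its smallest value.

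**Figure D4:**
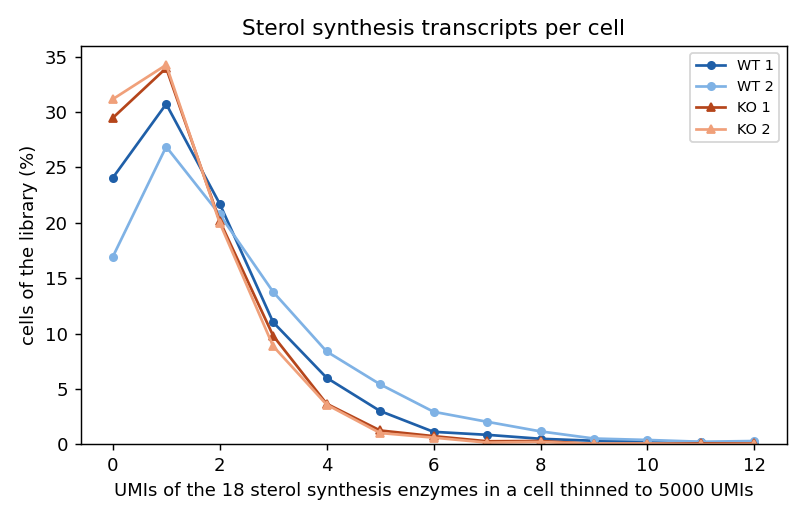
Share of the cells of each library (%) by the number of UMIs of the 18 sterol synthesis enzymes in a cell thinned to 5000 UMIs, up to 12 UMIs. The KO curves are higher at 0 and both lie below the WT curves from 3 to 6 UMIs, with WT 2 the farthest to the right.

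Other members followed the enzymes within a library to different degrees. Among WT cells with no enzyme UMI, 9.12% and 8.76% held a UMI of Insig1, against 25.7% and 34.1% of those with 5 or more. In KO the shares were 4.14% and 2.68% against 24.4% and 15.5%. Insig1 was thus more often seen in enzyme-rich cells of all 4 libraries, KO included. Srebf2 showed a smaller gradient, from 23.5% and 21.9% to 34.7% and 40.4% in WT and from 19.8% and 21.9% to 38.7% and 33.8% in KO. Abca1 ran the other way, from 5.96% and 7.05% to 3.47% and 2.91% in WT and from 6.70% and 8.61% to 1.68% and 4.23% in KO, on 2 to 12 cells with Abca1 among the enzyme-rich cells. Srebf1 had no common gradient, with 10.6%, 12.8%, 9.10% and 8.52% in cells without enzyme UMIs and 9.72%, 15.0%, 9.24% and 7.04% in those with 5 or more. These are descriptions of cells that share a library and a depth, with 71 to 413 enzyme-rich cells per library.

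**Figure D5:**
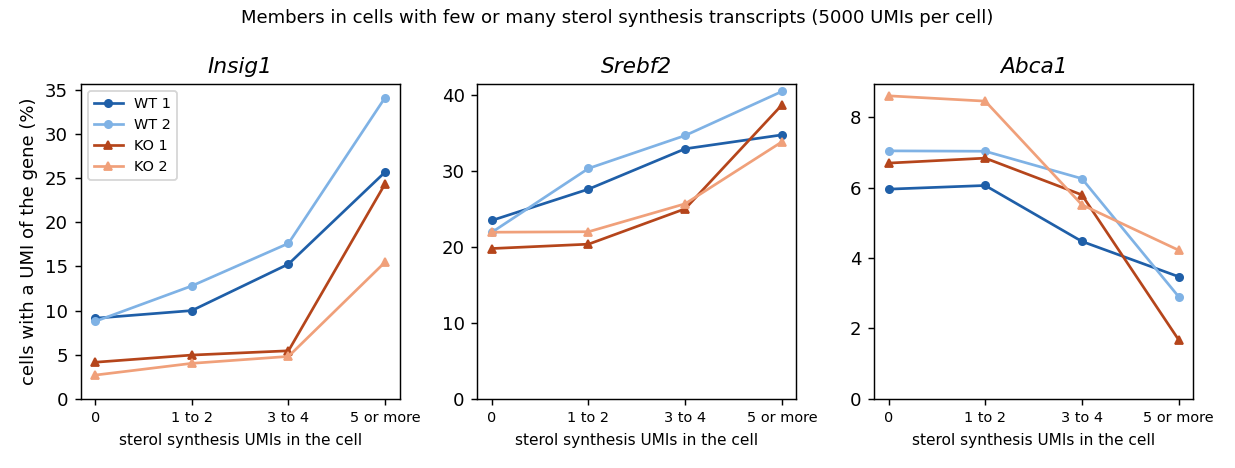
Share of cells (%) with a UMI of Insig1, Srebf2 or Abca1 among cells of each library grouped by their UMIs of the 18 sterol synthesis enzymes, all thinned to 5000 UMIs. Insig1 and Srebf2 are highest in the cells with 5 or more in each library, and Abca1 is lowest there.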

How the data were processed

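The deposited values are raw UMI counts for every gene in every barcode. Per the file headers, Cell Ranger 5.0.1 wrote them; the sources used here do not give its settings. The submitters' processing notes name the build mm10 and Seurat 4.0 without its role. Barcodes below 1000 UMIs or 500 genes, or above 10% mitochondrial UMIs, were left out. No doublet was removed and no cell was left out by type. UMI counts were summed per library, scaled with TMM and tested with edgeR 4.0.16 (R 4.3.3, quasi-likelihood, default expression filter, Benjamini-Hochberg adjustment over 14474 genes, threshold 0.05). SE and intervals come from the same fit. The fitted coefficient of variation between libraries was 7.84%. A chi-square test of replicate counts gave 13.3 per degree of freedom in WT and 14.99 in KO, so replicates differed by more than counting error. The fit was tested on simulated data. Alternatives included DESeq2 1.42.0, limma-voom (limma 3.58.1), other scalings, filters, cell sets and a replicate block. The members and lists were chosen with earlier results of these data known. By rule, every member is given, and up to 3 called genes of each further list. A gene named by that rule is not reported here. Promoter sequences are from RefSeq (GRCm38.p6) and gene positions from GENCODE M21.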

Additional observations from a re-analysis of the deposited data

How the results depend on the processing

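Of the 21 called members, 11 passed in every alternative that tested them (Fdps, Idi1, Fdft1, Cyp51, Msmo1, Sc5d, Insig1, Srebf1, Srebf2, Stard4 and Scd1), and the direction of all 21 held in each of the 15 that tested them. Among genes of at least 20 CPM, where fewer genes were tested, 9 members were lower, 1 was higher and 5 sterol synthesis enzymes were lower. DESeq2 called 13 members lower and 1 higher, and 7 enzymes lower. By step, the mevalonate enzymes had 2 lower calls by DESeq2 in place of 4, the squalene and sterol enzymes 5 by DESeq2 and without WT 2 in place of 8, and the efflux genes 0 higher by DESeq2, in thinned cells and without WT 1 in place of 2. With cells thinned to 5000 UMIs 1 member was called higher. Leaving out 1 library at a time gave 12 to 17 members lower, 1 to 2 higher and 8 to 11 enzymes lower. The fatty acid sum, −0.254 CPM, changed sign with library totals alone (2.21), with RLE factors (0.188) and without Scd2 (13.6). It ran from −6.55 to 6.04 CPM when 1 library was left out. Sums over other cell sets were scaled by library totals alone, so they compare with 2.21. They were 2.38 with all deposited barcodes and 2.49 in cells of at least 5000 UMIs and at most 5% mitochondrial UMIs. In thinned cells the sum was 5.70, and without cells holding a marker of another type −0.069. Mvk changed sign without WT 1 (−0.06, adjusted p = 0.782) and ran from −0.063 to 0.12 when 1 library was left out. The cause of these changes was not tested. A replicate block, for which the numbers 1 and 2 pair nothing in the labels and the deviations correlated at 0.04, called 18 members lower and 3 higher, lost Acaca (adjusted p = 0.0508) and gained Scd2 (0.0398). Without thinning, KO minus WT differences in the share of cells with a UMI moved beyond the replicate spread for 26 of 29 members. The shares themselves were also higher without thinning. Counts of 33 to 54 UMIs limit Abcg1 in WT.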
